A study of Mus musculus with 6 samples.

Results

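The insulin-like growth factor (IGF) axis was examined as 10 genes: the ligands Igf1 and Igf2, the receptors Igf1r and Igf2r, and the binding proteins Igfbp2, Igfbp3, Igfbp4, Igfbp5, Igfbp6 and Igfbp7. They were taken by symbol from 22180 genes that had a probe set of their own, and all 10 were measured, each by 1 probe set. RNA came from KP1, a cell line of mouse small cell lung cancer whose model of origin lacks Rb, p53 and p130, so every sample of both groups carries those 3 losses. In 3 samples (N1ICD) the cells had received activated Notch1, the intracellular domain of the receptor, together with GFP from an ires-GFP vector, and in 3 samples (empty vector) the same vector with GFP alone. Cells were sorted for GFP 48 hours after transfection, and the total RNA of each sample was measured on 1 Affymetrix Mouse Gene 2.0 ST array. All 6 samples are of 1 cell line and 1 time point. The labels call the 3 samples of a group biological replicates without saying whether they were separate transfections. The limma p-values thus set each group difference against a spread within groups that may be technical.

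IGF1 and IGF2 are secreted growth factors that act through IGF1R, a receptor tyrosine kinase that signals through insulin receptor substrates, PI3K and AKT to growth and survival. IGF2R, which is also the cation-independent mannose 6-phosphate receptor, takes up IGF2 for degradation. The IGF binding proteins hold the ligands outside the cell, extend or limit their access to the receptor, and are released from them by proteases. IGF signaling is known as a growth input of small cell lung cancer cells, a neuroendocrine tumor type. Values below are log2 RMA expression, in which 1 unit is a 2-fold difference, and are comparable between arrays for 1 gene but not between genes.

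In N1ICD cells 2 of the 10 genes, both binding proteins, were higher and none was lower. Igfbp3 rose 3.75-fold and Igfbp7 rose 1.39-fold, while both ligands, both receptors and 4 binding proteins did not pass the test. The test was limma's moderated test, and a gene was called changed where its p, adjusted by Benjamini-Hochberg over the 22180 genes, was under 0.05. Over all genes 7.10% were called, 3.82% as higher and 3.27% as lower in N1ICD. Of the genes at or above the median level, 11.6% were called. The median change of the 10 genes was 0.12 on the log2 scale, against -0.02 over all genes. The call of Igfbp7 was lost without any 1 of the 6 arrays, and that of Igfbp3 was kept in each of those fits.

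**Figure D1:**
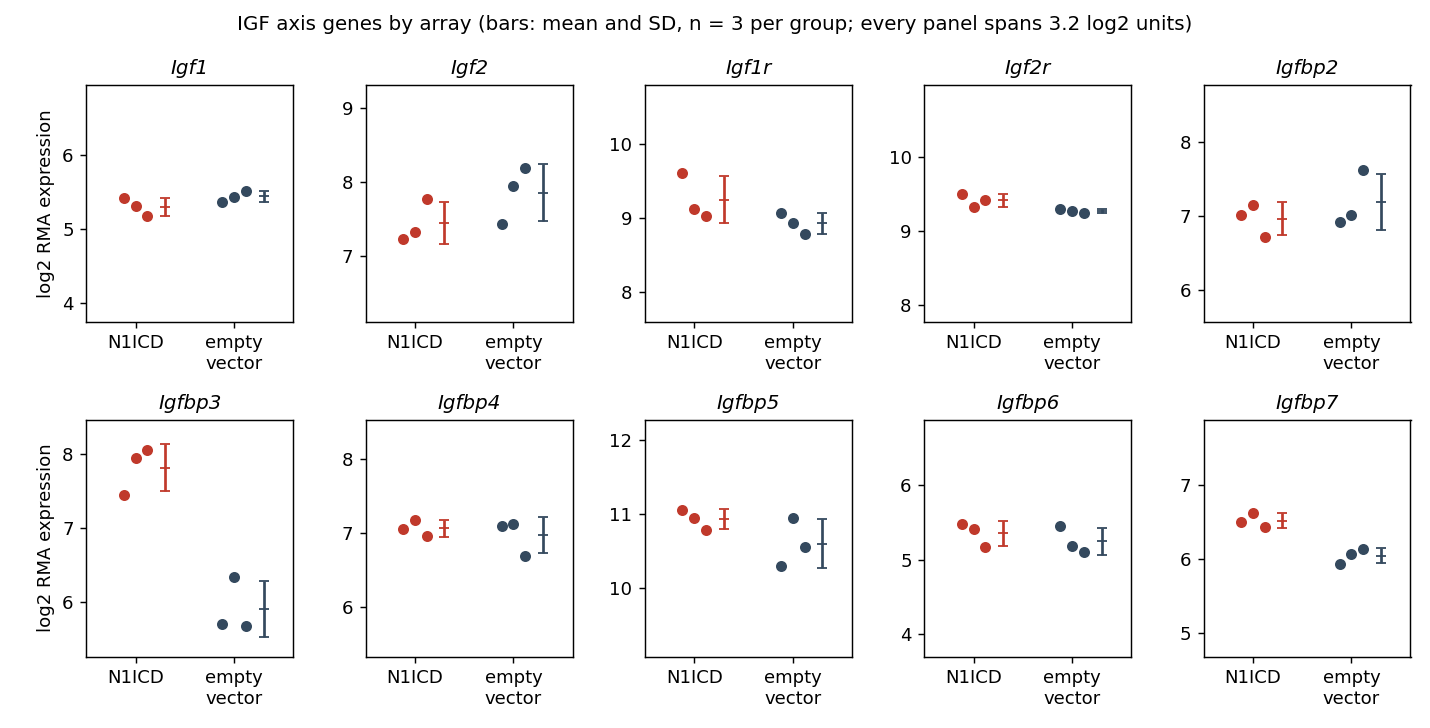
Log2 RMA expression of the 10 IGF axis genes (vertical axis) in each N1ICD array (red) and empty vector array (dark), with the mean and SD of each group of 3 beside its points. Every panel spans the same number of log2 units. The groups lie apart by more than 1 unit for Igfbp3 and by 0.30 or less, or not at all, for the others.

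The transfected gene and a direct Notch target were checked first. Notch1 measured 8.07, 7.49 and 7.72 in the N1ICD arrays, against 6.35, 6.20 and 5.96 in the empty vector arrays. Hes1, a canonical Notch target, measured 9.53, 9.64 and 9.57 in N1ICD, against 6.13, 6.28 and 5.95 in empty vector. Both went with the labels. The median over all probe sets of an array lay between 5.59 and 5.72, and the correlation across genes, which are not independent replicates, was 0.991 to 0.994 within groups and 0.980 to 0.984 between them. The 5 neuroendocrine markers measured (Chga, Syp, Ncam1, Insm1 and Uchl1) were above the array median on every array. Of these, Insm1 was lower in N1ICD (log2 change -0.89 ± 0.15, limma adjusted p = 0.0101), a call kept without any 1 array. Chga was higher (0.64 ± 0.12, limma adjusted p = 0.0155), a call lost in 4 of the 6 fits without 1 array (adjusted p up to 0.0638), and so was Ncam1 (0.53 ± 0.11, limma adjusted p = 0.0263), a call lost in 5 of them (up to 0.0955). Calca was not analysed here.

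Igfbp3 encodes the main carrier of IGFs in serum, which also acts on cells without IGF. It measured 7.45, 7.94 and 8.05 in the N1ICD arrays, against 5.71, 6.34 and 5.68 in the empty vector arrays. Every N1ICD array was above every empty vector array, and empty vector replicate 2 stood above the other two controls. The group means were 7.81 ± 0.32 in N1ICD and 5.91 ± 0.37 in empty vector (SD, n = 3 each). The log2 change was 1.91 ± 0.22 (SE), which is a fold change of 3.75 with a 95% confidence interval of 2.66 to 5.29 (limma adjusted p = 0.00144). An exact two-sided permutation test over the 20 assignments of the arrays gave p = 0.1, the smallest that 3 arrays against 3 allow. With 1 array left out the log2 change of Igfbp3 ranged from 1.79 to 2.12, and the highest adjusted p was 0.00976. The empty vector mean was close to the array medians, where RMA compresses differences.

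Igfbp7 encodes a secreted protein that binds IGFs only weakly and is deposited in the matrix around vessels. It measured 6.50, 6.63 and 6.43 in the N1ICD arrays, against 5.94, 6.08 and 6.13 in the empty vector arrays. The groups did not overlap, and the gap between the lowest N1ICD and the highest empty vector array was 0.30. The log2 change was 0.47 ± 0.10 (SE), or 1.39-fold with a 95% confidence interval of 1.18 to 1.63 (limma adjusted p = 0.0316). Its adjusted p lay between 0.0522 and 0.12 when 1 array was left out, highest without N1ICD replicate 2. It also lay above the threshold with the replicate number as a block (adjusted p = 0.0515), after quantile normalization again (0.0562), with equal array medians (0.0641) and with all probe sets tested (0.104). The size of its change stayed between 0.42 and 0.51 in all of these settings.

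**Figure D2:**
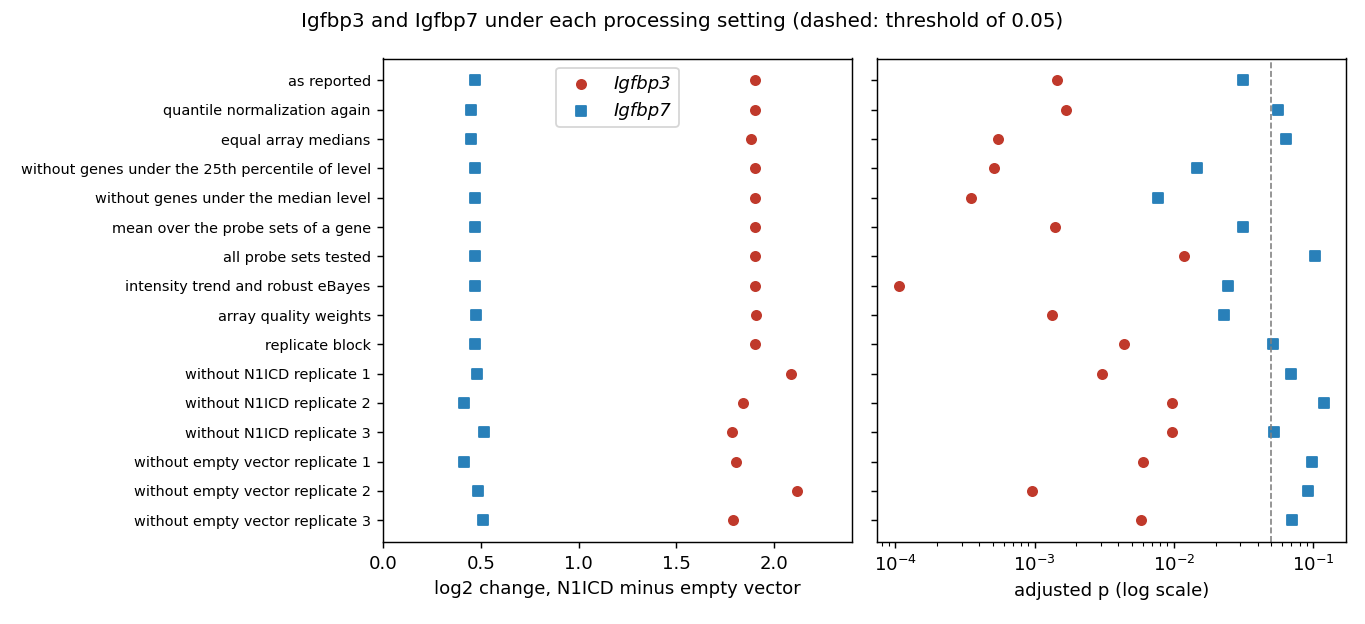
Log2 change, N1ICD minus empty vector (left), and adjusted p on a log axis (right) of Igfbp3 (circles) and Igfbp7 (squares) under each processing setting, 1 setting per line, with the threshold of 0.05 dashed. Igfbp3 stays left of the threshold under every setting shown, and Igfbp7 crosses it under 10 of the 15 alternatives.

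The start regions of Igfbp3 and Igfbp7 are shown because these are the called genes among the 10, and they were searched for the letters of transcription factor motifs. They were taken from RefSeq's mouse table (build GRCm38.p6), 250 bases before to 50 bases after the gene's start, 5′ to 3′ on the gene's strand. The sequence of Igfbp3 is chr11:7213874-7214173 on the minus strand and that of Igfbp7 is chr5:77407996-77408295 on the minus strand. Capitals mark matches to the TATA element TATANA (in Igfbp3) and to the GC box GGGCGG (in Igfbp7), searched on both strands, where matches may overlap.
Igfbp3: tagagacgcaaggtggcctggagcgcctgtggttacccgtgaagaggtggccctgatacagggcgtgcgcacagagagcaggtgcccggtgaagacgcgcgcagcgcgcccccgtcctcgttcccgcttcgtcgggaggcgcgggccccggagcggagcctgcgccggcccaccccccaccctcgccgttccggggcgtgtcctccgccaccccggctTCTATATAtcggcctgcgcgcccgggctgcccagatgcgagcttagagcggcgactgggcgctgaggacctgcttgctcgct
Igfbp7: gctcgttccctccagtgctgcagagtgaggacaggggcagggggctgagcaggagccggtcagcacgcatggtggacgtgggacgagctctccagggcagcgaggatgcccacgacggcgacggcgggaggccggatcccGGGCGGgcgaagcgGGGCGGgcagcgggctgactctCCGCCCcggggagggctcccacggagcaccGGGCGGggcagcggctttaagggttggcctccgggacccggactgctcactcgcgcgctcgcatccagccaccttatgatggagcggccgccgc

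Both windows are rich in G and C, 71.7% in Igfbp3 and 73.3% in Igfbp7, against a median of 52.7% over the 32851 start regions of the table. The TATA letters of Igfbp3 lie around 30 bases before the start, and 24.7% of all start regions hold them somewhere. Igfbp7 holds 4 matches to the GC box and none to the TATA letters, and 35.7% of all start regions hold a GC box. The core letters TGGGAA of RBPJ, the DNA-binding partner of the Notch1 intracellular domain, are in neither window, and 25.6% of all start regions hold them. Among the 10 genes they are in start regions of Igf1, Igf1r and Igf2, none of which passed the test. The core letters GGAATG of the TEAD factors are also in neither window (14.7% of all start regions), and neither is the palindromic E-box CACGTG (7.2%). A match is a description of the letters, and the lack of one says only that these letters are not in this window.

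The ligands were lower on average in N1ICD without passing the test. Igf2 measured 7.23, 7.33 and 7.76 in N1ICD, against 7.43, 7.95 and 8.19 in empty vector. The groups overlapped, and the log2 change of -0.42 ± 0.21 (limma adjusted p = 0.337) had a 95% confidence interval from -0.90 to 0.07. Its spread within groups, a pooled SD of 0.34, was larger than that of 94.5% of all genes, so a fall of up to 1.87-fold lies within the interval. Igf1 measured 5.41, 5.31 and 5.17 in N1ICD, against 5.36, 5.43 and 5.52 in empty vector. It was below the array median on all 6 arrays, with a log2 change of -0.14 ± 0.10 (limma adjusted p = 0.523).

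Igf1r, the signaling receptor, measured 9.61, 9.13 and 9.03 in the N1ICD arrays, against 9.08, 8.93 and 8.80 in the empty vector arrays. The groups overlapped narrowly, and N1ICD replicate 1 was the highest. The log2 change was 0.32 ± 0.16 with a 95% confidence interval from -0.05 to 0.69 (limma adjusted p = 0.332), and it was 0.14 without N1ICD replicate 1. Igf2r, the uptake receptor, measured 9.50, 9.33 and 9.42 in N1ICD, against 9.30, 9.27 and 9.25 in empty vector. Its groups did not overlap, as in 26.1% of all genes, and its log2 change was 0.14 ± 0.09 (limma adjusted p = 0.465). The upper bound of its interval, a 1.28-fold rise, was the lowest upper bound among the members with a positive change.

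Igfbp5, a binding protein that attaches to matrix, measured 11.05, 10.94 and 10.79 in N1ICD, against 10.29, 10.95 and 10.56 in empty vector. The groups overlapped through empty vector replicate 2, and the log2 change was 0.33 ± 0.17 with a 95% confidence interval from -0.06 to 0.71 (limma adjusted p = 0.336). Igfbp2, which carries an integrin-binding motif, measured 7.01, 7.15 and 6.72 in N1ICD, against 6.92, 7.01 and 7.62 in empty vector. Only empty vector replicate 3 stood above all the N1ICD arrays. The log2 change of -0.22 ± 0.20 (limma adjusted p = 0.612) was -0.0039 without that array.

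Igfbp4, the substrate of the protease PAPP-A, measured 7.05, 7.17 and 6.95 in N1ICD, against 7.10, 7.12 and 6.69 in empty vector. The groups overlapped, with a log2 change of 0.09 ± 0.14 (limma adjusted p = 0.788). Igfbp6, which prefers IGF2 over IGF1, measured 5.48, 5.41 and 5.17 in N1ICD, against 5.46, 5.18 and 5.10 in empty vector. It was below the array median on all 6 arrays, and its log2 change was 0.10 ± 0.13 (limma adjusted p = 0.738). The 95% confidence intervals of Igfbp4 and Igfbp6 reached up to 1.33-fold on the higher side. A probe set below the array median may hold little signal above background, which was not measured.

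**Figure D3:**
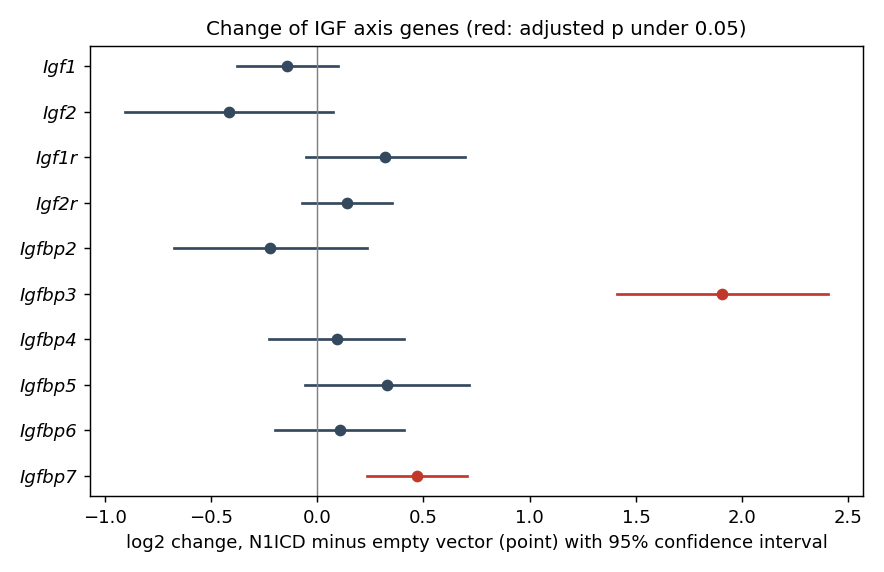
Log2 change, N1ICD minus empty vector, of the 10 IGF axis genes (points) with 95% confidence intervals (lines) from the limma fit. The intervals of Igfbp3 and Igfbp7 lie above 0 and the other 8 include 0.

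Some of these genes are neighbors in the genome, by the order of protein-coding genes in RefSeq. Igfbp3 lies next to Igfbp1 on chromosome 11, and Igfbp2 next to Igfbp5 on chromosome 1. Igfbp1, a binding protein known for its control by insulin in liver, had a log2 change of -0.16 ± 0.10 (limma adjusted p = 0.46), and it was below the array median on all 6 arrays. The within-array difference of Igfbp3 and Igfbp1, relative to its mean in empty vector, was 1.82, 2.06 and 2.32 in N1ICD, against -0.27, 0.42 and -0.15 in empty vector. The change of Igfbp3 thus exceeded that of Igfbp1 by 2.07, with no overlap of the groups (exact two-sided permutation p = 0.1, the smallest possible, and 0.15 adjusted over the 3 gene pairs compared, which were picked with values known). For Igfbp5 and Igfbp2 the change differed by 0.55, and the groups overlapped (exact permutation p = 0.2, adjusted 0.2). Igf2 lies next to Ins2, an insulin gene, which was below the array median on all 6 arrays, with a log2 change of -0.32 ± 0.16 (limma adjusted p = 0.322).

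The 3 genes with the pattern most like that of Igfbp3 over the 6 arrays were Pdlim3, Foxq1 and Frem2. Likeness was the root mean square distance between values centered on each gene's own mean, which was 0.17, 0.20 and 0.20. Pdlim3, an actin-associated protein, had a log2 change of 2.16, the forkhead factor Foxq1 of 1.67 and the basement membrane protein Frem2 of 1.56. Pdlim3, Foxq1 and Frem2 were each highest among the empty vector arrays in replicate 2, as Igfbp3 was. That shared pattern follows in part from picking them by likeness over these same arrays. Pearson's r with Igfbp3 was 0.993, 0.989 and 0.995. These values describe 6 arrays that share the group difference, and by Pearson's r alone 2 of the 3 genes were again among the 3 most alike.

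**Figure D4:**
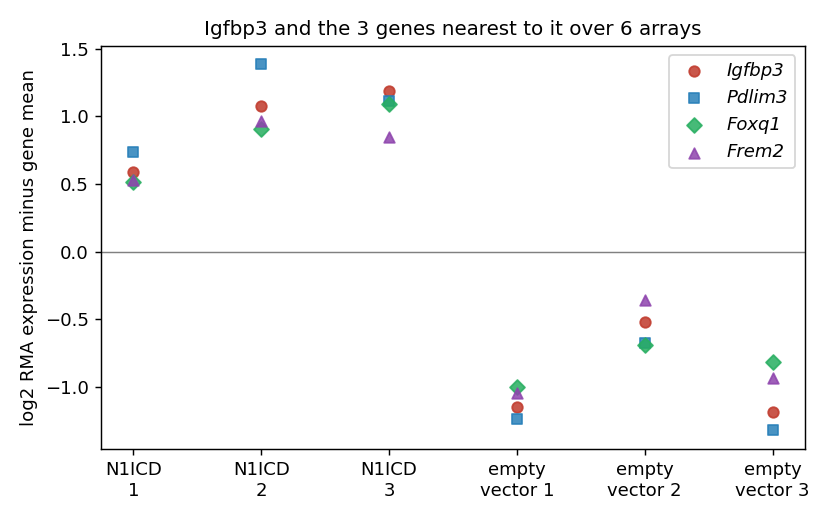
Log2 RMA expression minus each gene's mean over the 6 arrays (vertical axis) for Igfbp3 and the 3 genes nearest to it, by array. All 4 genes are above 0 in the N1ICD arrays and below 0 in the empty vector arrays, and N1ICD replicate 1 is the lowest of its group for each.

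Other genes of the pathway were taken as 6 lists by role. Of 61 genes measured, 6 rose, 6 fell and 49 were not called (median log2 change -0.06). The 12 called genes are 19.7% of those measured, against 7.10% of all genes and 11.6% of genes at or above the median level. The counts of the single lists below are to be read against the same shares. The lists were chosen with earlier results of these data known, so the contrast of shares is a description only. Of the 12 called genes, 6 lost the call without at least 1 array, as given with each below.

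The ligands, receptors and carriers outside the 10 genes gave 2 rises and 1 fall of 9 measured (median -0.19). Igfbpl1, which encodes a protein like the binding proteins, measured 7.48, 7.38 and 7.52 in N1ICD, against 6.60, 6.06 and 6.27 in empty vector. The groups lay far apart, with a log2 change of 1.15 ± 0.14 (limma adjusted p = 0.00233). Lrp1, an endocytic receptor reported to bind IGFBP3 in cell culture, had a mean of 7.69 ± 0.20 in N1ICD and 6.77 ± 0.10 in empty vector (SD, n = 3 each), a log2 change of 0.92 ± 0.12 (limma adjusted p = 0.00346). Insrr, a relative of the insulin receptor that senses alkaline pH, measured 5.51, 5.37 and 5.82 in N1ICD, against 6.62, 6.73 and 6.67 in empty vector. It fell by 1.10 ± 0.13 on the log2 scale (limma adjusted p = 0.0016). The calls of Igfbpl1, Lrp1 and Insrr were kept without any 1 array.

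Insr, the insulin receptor, which can pair with IGF1R, measured 8.54, 8.41 and 8.58 in N1ICD, against 8.64, 8.87 and 8.93 in empty vector. The groups did not overlap, and the log2 change was -0.31 ± 0.11 (limma adjusted p = 0.169). The change of Igf1r exceeded that of Insr by 0.63 within arrays (exact permutation p = 0.1, adjusted 0.15). Relative to its mean in empty vector, the difference was 0.95, 0.60 and 0.32 in N1ICD, against 0.31, -0.06 and -0.26 in empty vector. The groups did not overlap, but N1ICD replicate 3 and empty vector replicate 1 nearly met.

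Among 9 proteases that release IGFs from binding proteins and inhibitors of these proteases, 2 rose and none fell (median 0.17). Stc2, a stanniocalcin that inhibits PAPP-A, measured 7.40, 8.17 and 7.91 in N1ICD, against 6.60, 6.61 and 6.95 in empty vector. The groups did not overlap, and the log2 change was 1.10 ± 0.20 (limma adjusted p = 0.014). The call was lost without N1ICD replicate 3 (0.0532) or empty vector replicate 2 (0.0539). Adam12, a metalloprotease that cleaves IGFBP3 and IGFBP5 in human, had a log2 change of 0.49 ± 0.11 (limma adjusted p = 0.0325), a call lost without any array but empty vector replicate 1 (adjusted p up to 0.114). Pappa, the gene of PAPP-A, changed by 0.28 ± 0.11 on the log2 scale (limma adjusted p = 0.203) and was not called.

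Of 11 receptor adaptors, 1 rose and 2 fell (median -0.11). Grb14, an inhibitory adaptor of the insulin receptor, measured 7.90, 8.08 and 7.99 in N1ICD, against 6.45, 6.66 and 6.39 in empty vector. It rose 2.81-fold (log2 change 1.49 ± 0.11, limma adjusted p = 0.000128), a call kept without any 1 array. Its relative Grb10, which restrains the insulin and IGF1 receptors, measured 9.10, 9.26 and 9.47 in N1ICD, against 9.72, 9.73 and 9.90 in empty vector. Grb10 fell by 0.51 ± 0.12 on the log2 scale (limma adjusted p = 0.0439), a call lost without any array but N1ICD replicate 3 (adjusted p up to 0.151). Sh2b2, an adaptor that binds the insulin receptor, fell by 0.64 ± 0.10 (limma adjusted p = 0.00889). The insulin receptor substrates Irs1 (-0.28 ± 0.12, limma adjusted p = 0.249) and Irs2 (-0.20 ± 0.12, limma adjusted p = 0.405) did not pass the test.

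Of 21 PI3K, AKT and TOR genes measured, 2 fell and none rose (median -0.06). Eif4ebp1, a translational repressor controlled by mTOR, had a mean of 9.73 ± 0.15 in N1ICD and 10.29 ± 0.06 in empty vector (SD, n = 3 each), a log2 change of -0.56 ± 0.11 (limma adjusted p = 0.0199). Its call was lost without any array but N1ICD replicate 1 (adjusted p up to 0.0833). Tsc1, a subunit of the complex that holds back mTOR, had a log2 change of -0.52 ± 0.12 (limma adjusted p = 0.034), a call lost without any array but N1ICD replicate 3 (adjusted p up to 0.117).

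None of the 5 measured regulators of Igf2 RNA or of the imprinted Igf2 and Igf2r loci was called by limma, and none reached an unadjusted p under 0.05 (Igf2bp3, Plagl1, Hmga2, Airn and Igf2os). H19, Igf2bp1 and Igf2bp2 had no probe set with their symbol alone in the annotation used and were not analysed here.

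The CCN proteins are matrix-associated proteins whose first domain resembles that of the IGF binding proteins. Of 6, 1 rose and 1 fell (median 0.13). Ccn3 measured 11.14, 10.60 and 11.32 in N1ICD, against 12.04, 12.09 and 12.15 in empty vector. The groups did not overlap, and Ccn3 fell by 1.08 ± 0.18 on the log2 scale (limma adjusted p = 0.00921), a call kept without any 1 array. Ccn1 measured 6.89, 7.24 and 7.47 in N1ICD, against 6.44, 6.32 and 6.48 in empty vector. Its log2 change was 0.79 ± 0.15 (limma adjusted p = 0.0183), a call lost without N1ICD replicate 2 (adjusted p = 0.0759) or empty vector replicate 2 (adjusted p = 0.0695).

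**Figure D5:**
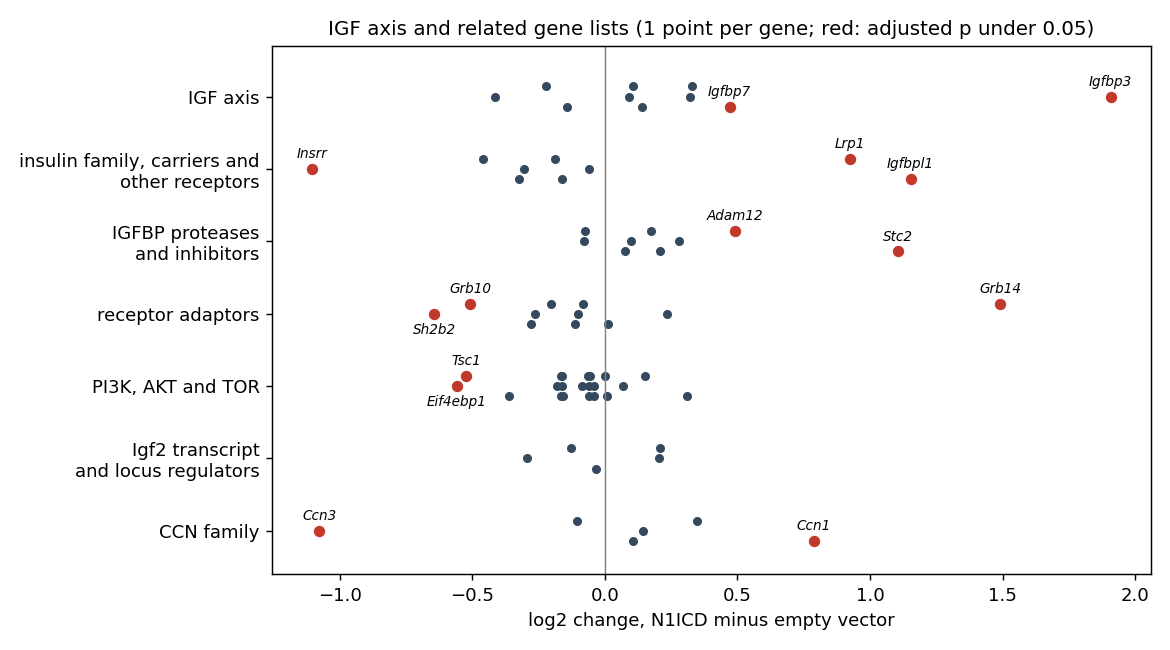
Log2 change, N1ICD minus empty vector (horizontal axis), of the 10 IGF axis genes and of 6 related gene lists, 1 point per gene, with called genes in red and named. Most points lie within 0.5 of 0, and the called genes lie on both sides.

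Igfbp3 and Igfbp7 are also expressed by endothelial cells, so markers of other cell types were measured beside them. Of 5 endothelial markers 2 rose, Kdr (log2 change 3.04 ± 0.17, limma adjusted p = 2.77e-05) and Tek (1.06 ± 0.14, limma adjusted p = 0.00312). Cdh5 (-0.01 ± 0.15, limma adjusted p = 0.982) and Vwf (-0.08 ± 0.12, limma adjusted p = 0.792) were not called, and both were below the array median on all 6 arrays. Pecam1 was not called either (0.07 ± 0.10, limma adjusted p = 0.789). It measured 6.09, 6.18 and 5.98 in N1ICD, against 6.13, 5.98 and 5.93 in empty vector. With Kdr and Tek included, the mean over the 5 endothelial markers was 6.95 to 7.04 in N1ICD and 6.13 to 6.23 in empty vector. Of 6 fibroblast markers 1 fell (Pdgfra, -0.74 ± 0.14, limma adjusted p = 0.0202), a call lost in 4 of the 6 fits without 1 array (adjusted p up to 0.0736), and the mean over the list was 5.71 to 5.79 in N1ICD and 5.90 to 6.01 in empty vector. Of 5 macrophage markers 1 rose (Lyz2, 0.52 ± 0.12, limma adjusted p = 0.0351), a call lost without any 1 of the 6 arrays (adjusted p up to 0.11). In that list 4 of the 5, Lyz2 among them, were below the array median on all arrays. The part of other cells in the changes of Igfbp3 and Igfbp7 was not tested. In bulk RNA of this kind, more RNA per cell and more cells with the RNA cannot be told apart.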

How the data were processed

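The authors made the deposited values with RMA, per the submitters' processing notes, which give no version of it. The notes do not state a log base, and the deposited values were read as log2, since the highest value, 14.09, exceeds 11.09, the natural log of a 16-bit maximum. The genome build of the probe sets is not stated there either. RMA pulls arrays to a common distribution and compresses changes of dim probe sets.

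Of 41345 probe sets, 23521 carried 1 gene symbol in the platform annotation, 1814 several and 16010 none. The brightest single-symbol probe set by the mean over 6 arrays stood for a gene. No filter on dim genes was applied. Groups came from the sample titles. Differences are N1ICD minus empty vector, fitted with limma 3.58.1 in R 4.3.3 (lmFit, eBayes, two-sided, Benjamini-Hochberg adjustment over 22180 genes). Each ± after a log2 change is an SE. The fit was tested on simulated data. Values were handled with pandas 2.3.3 and the R package data.table, version 1.17.8, and figures drawn with matplotlib 3.10.9.

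The 10 genes, the lists and the pairs were chosen with earlier results of these data known. Named were the 10 genes, up to 4 called genes of each list by size, Insr, Irs1, Irs2, Grb10, Igfbp1, H19 and Pappa, the 3 genes most like Igfbp3, and Notch1 and Hes1. Further genes were named to complete a small count or a marker list. Same-numbered arrays of the 2 groups had deviations from their group means that correlated at 0.23, 0.01 and 0.20 across genes. Values for arrays with different numbers are not given here. Deviations within a group sum to 0, so positive values here go with negative covariances, on average, between arrays with different numbers. These correlations alone do not settle whether the numbers are pairs. The main fit did not take them as pairs. With the replicate number as a block, Igf2 (limma adjusted p = 0.0959) and Igf1r (limma adjusted p = 0.15) had lower adjusted p than in the main fit and were still not called. Alternatives were other scaling, filters on dim genes, other probe set choices, other variance settings, array weights, a replicate block and leaving out each array. With 3 arrays per group, precision is limited by their number.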

Additional observations from a re-analysis of the deposited data

How the results depend on the processing

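Igfbp3 kept its direction and its call under all 15 alternatives, with a log2 change of 1.79 to 2.12. Igfbp7 kept its direction under the same 15 and its call under 5. The call of Igfbp7 was lost after quantile normalization again (log2 change 0.45), with equal array medians (0.45), with all probe sets tested (0.47), with the replicate block (0.47) and without each array (0.42 to 0.51); under the same settings 1 of the 10 genes was called. The cause was not tested. With all probe sets tested, both the variance estimate of limma and the adjustment were made over 41345 probe sets. Igfbp4 had a log2 change of -0.049 without empty vector replicate 3 (0.17 at most without another array). The other 7 genes kept their direction and stayed outside the threshold under every alternative that held them. With genes under the median level left out, Igf1 and Igfbp6 had no value.

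The protease and inhibitor list had 1 called gene with equal array medians or the replicate block, 0 with all probe sets tested, and 0 to 2 without 1 array. The PI3K, AKT and TOR list had 0 with all probe sets tested and 0 to 1 without 1 array, and the CCN list had 1 and 1 to 2. With all probe sets tested, 805 of 41345 probe sets were called, which is not a count of genes. Over all genes, 823 to 1230 were called without 1 array, lowest without N1ICD replicate 2, and 1518 with the replicate block. More were called with array quality weights (1862), without genes under the 25th percentile of level (2061) or under the median level (2197 of 11090) and with an intensity trend and robust eBayes (2276), against 1574 as reported. Each of the 10 genes has 1 probe set, so no other probe set could be compared. Signal over background was not measured, which limits what Igf1 and Igfbp6 can show.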
